A study of Mus musculus with 60 samples.

Results

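The skeletal myosin heavy chain cluster on mouse chromosome 11 holds 6 of the 21938 protein-coding genes examined, Myh3, Myh2, Myh1, Myh4, Myh8 and Myh13. They were followed in profiles of H3K27me3, the repressive mark written by Polycomb Repressive Complex 2 (PRC2), inside a span of the mm10 genome from 67000000 to 68000000 that holds 17 protein-coding genes. The genes and the span were chosen by their measured H3K27me3, because a long stretch there had no peaks in cells with H3R2C. The H3K27me3 of H3R2C against H3WT is therefore given below as a description, without a test.

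Myosin heavy chains are the motor proteins of the thick filament, and muscle fibres are typed by which of them they make. Within the cluster the genes lie head to tail and are switched on in turn as muscle develops and matures. Myh3 encodes the embryonic chain and Myh8 the perinatal chain. Myh2, Myh1 and Myh4 encode the adult fast chains IIa, IIx and IIb, and Myh13 encodes the chain of extraocular and laryngeal muscle. Cells that are not muscle keep such genes silent, and H3K27me3 is a mark that silent developmental genes often carry.

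The cells were C3H 10T1/2, a clonal line of mouse mesenchymal progenitors. All were transduced by lentivirus with an HA-tagged histone H3.1 and selected with puromycin, and they kept their own histone H3 genes. The tagged histone was either H3WT, the wild type, or a mutant in which cysteine replaced a single arginine in the tail, named by its position as H3R2C, H3R8C, H3R17C and H3R26C. Chromatin was profiled by CUT&RUN, in which an antibody directs a nuclease to its target and the released DNA is sequenced, with 3 labelled replicates for each of the 5 genotypes. Of 60 samples, the 30 with anti-H3K27me3 or anti-HA, each deposited as a list of called peaks, are described here. In every group at least 2 labelled replicates had lists with identical values, and identical lists were counted as 1 library. Whether such a list is a pool of replicates or 1 replicate deposited again is not known, so n = 2 counts distinct lists and an SD is the spread between 2 of them. The H3R17C anti-H3K27me3 list of replicate 1 was left out because its name gave another mark than its label. This left 9 anti-H3K27me3 libraries (2 for each genotype and 1 for H3R17C) and 10 anti-HA libraries (2 for each genotype).

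The anti-H3K27me3 lists held 20077 to 24598 peaks that covered 2.36% to 4.79% of the genome. The anti-HA lists held 15344 to 52083 peaks that covered 1.57% to 7.83%. The lists carry no read totals. The start sites of 8 mesenchymal genes (Col1a1, Col1a2, Vim, Fn1, Twist1, Prrx1, Thy1 and S100a4) had no H3K27me3 peak in any list. The same held for 18111 of the 21938 protein-coding genes, so such absence is a weak check of the cell type. Of 6 skeletal muscle genes, Myod1, the master regulator of the muscle lineage, had a peak over its start in 9 of 9 lists and Ckm, muscle creatine kinase, in 8, and 4 (Myf5, Myog, Des and Acta1) had none. No RNA was measured in these libraries.

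All 6 genes are on the forward strand. Myh3 lies at chr11:67078300-67102291 and Myh2 at chr11:67171027-67197517. Myh1 follows at chr11:67200052-67224575, Myh4 at chr11:67238029-67260446, Myh8 at chr11:67277124-67308634 and Myh13 at chr11:67321658-67371586 (GENCODE, mm10). The interval between Myh3 and Myh2 holds the long non-coding gene 2310065F04Rik, and the antisense gene Myhas lies between Myh4 and Myh1 and overlaps the latter. Beyond Myh13 lie Gas7, Glp2r, Rcvrn, Gsg1l2, Dhrs7c and Usp43.

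The start regions of the cluster are shown because the H3K27me3 lists differed at them. The RefSeq windows (GRCm38.p6) run from 250 bases before to 50 bases after each start and were found for 6 of 6 genes. Myh2, Myh1, Myh4 and Myh8 share a run of 14 bases, TTCTAATTATATCC, which was found in 4 of 32851 promoter windows of that length, searched on both strands, and those 4 were these genes. Myh3 and Myh13 lack it. The run begins 125 bases before the start of Myh2, 160 before that of Myh1, 158 before that of Myh4 and 54 before that of Myh8. In the sequences below, which stand at chr11:67078050-67078349 for Myh3, chr11:67170777-67171076 for Myh2, chr11:67199852-67200151 for Myh1, chr11:67237562-67237861 for Myh4 and chr11:67276874-67277173 for Myh8, capitals mark the shared run and the letters TATAAA.
Myh3: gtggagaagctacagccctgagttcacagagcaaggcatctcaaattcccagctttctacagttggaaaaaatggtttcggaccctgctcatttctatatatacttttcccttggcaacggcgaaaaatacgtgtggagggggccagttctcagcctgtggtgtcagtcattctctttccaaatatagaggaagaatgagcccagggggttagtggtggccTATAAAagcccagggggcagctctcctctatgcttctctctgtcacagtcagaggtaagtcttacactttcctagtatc
Myh2: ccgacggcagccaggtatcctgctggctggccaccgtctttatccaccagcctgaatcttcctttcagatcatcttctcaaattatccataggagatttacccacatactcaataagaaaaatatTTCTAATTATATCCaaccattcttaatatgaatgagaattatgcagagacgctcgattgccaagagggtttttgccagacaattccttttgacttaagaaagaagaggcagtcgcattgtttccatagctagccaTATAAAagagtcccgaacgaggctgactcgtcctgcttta
Myh1: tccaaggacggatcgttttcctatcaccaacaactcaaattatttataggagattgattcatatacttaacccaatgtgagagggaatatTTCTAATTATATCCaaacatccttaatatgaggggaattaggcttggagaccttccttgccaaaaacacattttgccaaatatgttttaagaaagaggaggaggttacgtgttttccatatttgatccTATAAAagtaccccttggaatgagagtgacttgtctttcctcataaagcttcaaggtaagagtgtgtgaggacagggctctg
Myh4: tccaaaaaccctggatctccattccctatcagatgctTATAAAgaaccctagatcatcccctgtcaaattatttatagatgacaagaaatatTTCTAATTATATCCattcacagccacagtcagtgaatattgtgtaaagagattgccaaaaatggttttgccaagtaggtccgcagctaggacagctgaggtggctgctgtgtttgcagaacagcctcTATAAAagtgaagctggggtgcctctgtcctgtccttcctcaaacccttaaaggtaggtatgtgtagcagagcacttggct
Myh8: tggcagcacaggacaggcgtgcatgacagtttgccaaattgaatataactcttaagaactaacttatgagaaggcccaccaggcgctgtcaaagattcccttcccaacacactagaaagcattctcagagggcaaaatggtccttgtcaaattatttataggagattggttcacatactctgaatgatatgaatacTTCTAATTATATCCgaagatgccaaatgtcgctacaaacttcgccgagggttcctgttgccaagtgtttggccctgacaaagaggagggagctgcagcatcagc

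TATAAA on the forward strand, the letters of a TATA box core, was present in 4 of the 6 windows (Myh3, Myh2, Myh1 and Myh4) and in 8.32% of all windows. The match began 29 bases before the RefSeq start in Myh3, 32 in Myh1 and -10 in Myh2, where it lies after the start. Of the 2 matches in Myh4, the first began 213 bases before the start. The other, also in capitals above, began before the start at a distance between those of Myh3 and Myh1. The binding motif of MEF2, a family of factors that drive muscle genes, was present in the windows of Myh1, Myh4 and Myh8 and in 3.19% of all. The CArG box, bound by serum response factor, was present in those of Myh4 and Myh13 and in 1.63% of all. CANNTG, the letters bound by MYOD1 and its relatives, was present in 4 windows (Myh3, Myh4, Myh8 and Myh13) and in 72.3% of all. These are letter matches, and binding was not measured. The windows held between 1 (Myh4) and 9 (Myh2) CpG dinucleotides, against a median of 7 over all windows.

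In H3WT cells the mark lay mainly at both ends of the cluster. Myh3 was covered by peaks over 50.4% of its body in the list of replicates 1 and 2 and over 59.8% in that of replicate 3. Myh13 was covered over 59.3% and 47.6%. The genes between them carried less. Myh4 was covered over 20.2% and 27.4% of its body, Myh8 over 18.7% and 17.9%, Myh1 over 20.4% and 0%, and Myh2 over 1.98% and 0%. The order of the genes by mean coverage was therefore Myh3 (55.1% ± 6.63, SD, n = 2), Myh13 (53.4% ± 8.28), Myh4 (23.8% ± 5.12), Myh8 (18.3% ± 0.561), Myh1 (10.2% ± 14.4) and Myh2 (0.989% ± 1.40). Myh3 and Myh13 differed by less than the SD of either, and Myh1 differed from its neighbours in that order, Myh8 and Myh2, by less than its own SD. Over the 6 bodies together, 32.2% and 27.9% of bases were covered.

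**Figure D1:**
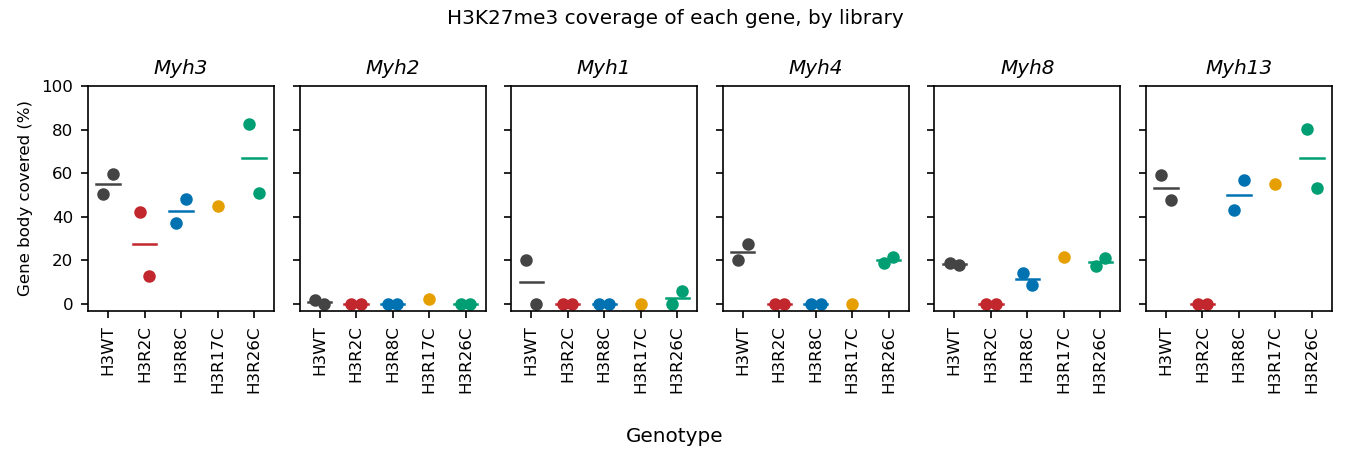
Percent of each gene body under H3K27me3 peaks (y axis) by genotype (x axis), with 1 panel for each of the 6 genes in their order on the chromosome. Points are libraries and bars are means of 2 libraries (H3R17C has 1 library and no bar), and the H3R2C points sit at 0% in every panel except that of Myh3.

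The 2 H3WT lists differed at start sites, taken as 1 kb on either side of the annotated start. The list of replicates 1 and 2 had a peak over the start of 6 of 6 genes, with total signals (coverage summed over the bases of a peak, as deposited) of 16900 at Myh3, 7850 at Myh2, 9500 at Myh1, 15450 at Myh4, 7250 at Myh8 and 7500 at Myh13. The list of replicate 3 had a peak over the starts of Myh3 (8100) and Myh13 (30000) and none over those of Myh2, Myh1, Myh4 and Myh8. The start peaks of Myh2, Myh8 and Myh13 in the first list were near its lowest listed total of 5800, and the lowest listed total of replicate 3 was 6000.

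In H3R2C cells the mark stopped behind Myh3. From chr11:67111851 to chr11:67903250, a stretch of 791.4 kb that runs from between Myh3 and Myh2 to inside Usp43, neither H3R2C list had a peak. Myh2, Myh1, Myh4, Myh8 and Myh13 lie wholly inside it and were at 0% in both lists. The H3WT lists had 34 peaks each in the same stretch, covering 166.8 kb and 150.55 kb of it. In the list of each other genotype, the peaks within it numbered 36 and 25 for H3R8C, 34 for H3R17C, and 37 and 44 for H3R26C. The longest interval without a peak in any of those 7 lists was 244.8 kb to 365.25 kb, and in each it lay over Gas7.

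**Figure D2:**
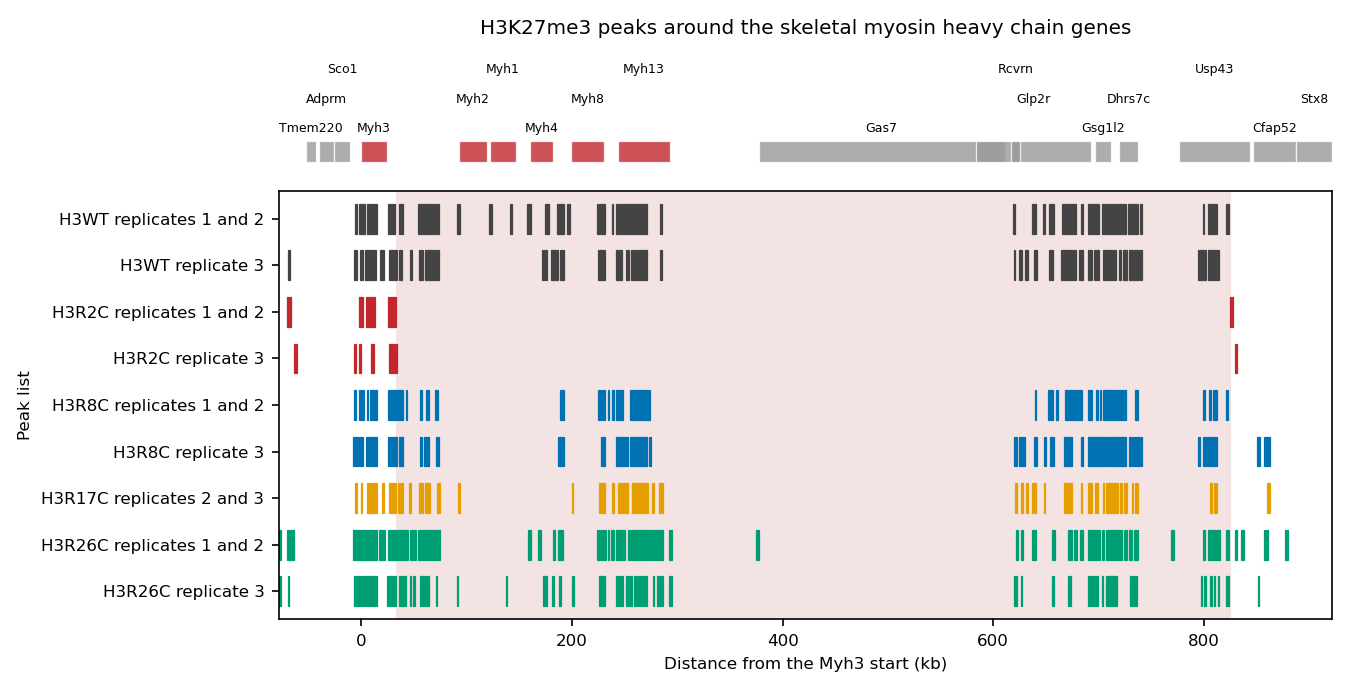
H3K27me3 peaks in each of the 9 independent lists (rows) along the span, as distance in kb from the start of Myh3 (x axis), with protein-coding genes above and the 6 myosin genes in red. The shaded stretch of 791.4 kb has no peak in either H3R2C list and 25 to 44 peaks in each other list.

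Myh3 kept H3K27me3 in H3R2C. Its body was covered over 42.3% in the list of replicates 1 and 2 and 12.7% in that of replicate 3, both below the 2 H3WT values. The peak over its start had totals of 13200 and 5000, against 16900 and 8100 in H3WT. The peaks nearest to the stretch were the last before it at chr11:67103801-67111550 (total 40300, replicates 1 and 2) and chr11:67109901-67111850 (total 5250, replicate 3). The first after it were at chr11:67903251-67905950 (total 8550) and chr11:67907751-67909350 (total 4700). The lowest totals listed anywhere were 8050 and 4250 in these 2 lists, so that 3 of these 4 edge peaks were close to the level below which nothing was listed. The H3WT peaks in the stretch were not all small. The largest, over Myh13 at chr11:67322801-67349750, was 26.95 kb wide with a total of 127750, and 20 of 34 and 27 of 34 H3WT peaks there had totals over 8050.

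The H3R2C list of replicates 1 and 2 covered more of the genome, 4.79%, than any other anti-H3K27me3 list. Of all bases covered in both H3WT lists, the H3R2C lists covered 76.7% and 59.6% over the genome and 86.2% and 72.9% over chromosome 11. At the Myh3 end, from 10 kb before Myh3 to the edge of the stretch, they covered 86.3% and 55.2% of such bases, and within the stretch 0% of 117.2 kb. Over the genome, the H3R2C lists left 25625 intervals without a peak, of which 6168 held bases covered in both H3WT lists, with a median of 1.1 kb of them. The stretch ranked 1 by this length, and the next held 82.7 kb. That rank comes from the values that chose the genes.

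**Figure D3:**
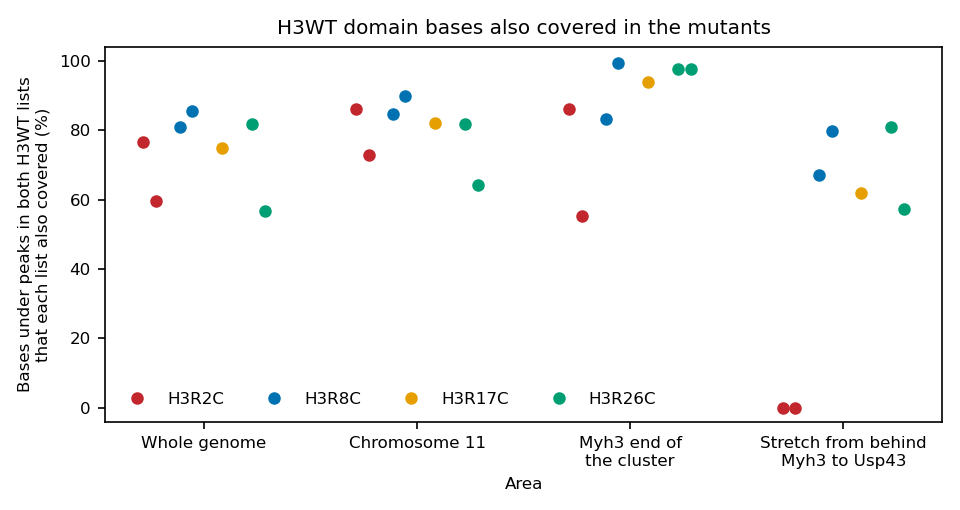
Percent of the bases under peaks in both H3WT lists that each mutant list also covered (y axis), over the genome, chromosome 11, the Myh3 end of the cluster and the stretch behind it (x axis). Points are libraries, and the H3R2C points are at 76.7% and 59.6% over the genome and at 0% in the stretch.

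A few genes beyond the cluster shared the stretch. Dhrs7c, a muscle dehydrogenase of the sarcoplasmic reticulum, was covered over 82.6% and 68.0% of its body in H3WT, 0% and 0% in H3R2C and 40.4% to 76.1% in the lists of the other genotypes. Gsg1l2 was covered over 76.5% and 72.9% in H3WT, 0% and 0% in H3R2C and 53.0% to 93.1% elsewhere. Glp2r, the receptor for glucagon-like peptide 2, was covered over 28.1% and 30.1% in H3WT and 0% and 0% in H3R2C. The lists of the other genotypes had 11.4% to 26.3%, all below both H3WT values. Rcvrn, which lies within Glp2r and encodes the photoreceptor calcium sensor recoverin, was at 29.3% and 27.9% in H3WT and at 0% in both H3R2C lists and in 1 H3R8C list. Gas7, between the myosin genes and these, had no peak in its body in any of the 9 lists. Before Myh3, the bodies of Tmem220, Adprm and Sco1 were at 0% in every list, as was Stx8 at the far end of the span. Cfap52 was at 0% in both H3WT and both H3R2C lists and reached 20.4% in H3R8C.

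Of the non-coding genes of the cluster, 2310065F04Rik and Myhas were examined, picked after their values were seen, and both were at 0% in both H3R2C lists. 2310065F04Rik was covered over 42.0% and 37.4% in H3WT, 54.5% and 45.9% in H3R8C, 51.2% in H3R17C and 80.4% and 66.0% in H3R26C. Myhas was covered over 18.5% in 1 H3WT list and 0% in the other, 0% in both H3R8C lists and in H3R17C, and 3.32% and 5.51% in H3R26C, so that 0% was not particular to H3R2C. Peaks have no strand, so the mark over Myhas and over the part of Myh1 that it overlaps cannot be told apart.

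The mark was also listed over the cluster in H3R8C, H3R17C and H3R26C. The stretch was first noticed as lost in H3R2C and kept in H3R26C, so that its presence in H3R26C is no independent result. H3R8C covered 19.5% and 23.8% of the bases of the 6 bodies. Myh13 was covered over 43.0% and 56.8% of its body, Myh3 over 37.1% and 48.4% and Myh8 over 14.2% and 8.52%. Myh2, Myh1 and Myh4 were at 0% in both H3R8C lists. The H3R8C values at Myh4 lay outside the H3WT range of 20.2% to 27.4%, whereas at Myh2 and Myh1 an H3WT list was also at 0%.

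The single H3R17C list covered 25.6% of the bases of the 6 bodies. Myh13 was covered over 55.1%, Myh3 over 45%, Myh8 over 21.5% and Myh2 over 2.36%, and Myh1 and Myh4 were at 0%. It had a peak over the starts of Myh3, Myh2, Myh8 and Myh13.

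H3R26C covered 39.0% and 28.9% of the bases of the 6 bodies. Myh13 was covered over 80.4% and 53.1% of its body and Myh3 over 82.5% and 51.1%. Myh4 was at 18.8% and 21.4%, Myh8 at 17.6% and 20.9%, Myh1 at 0% and 5.91%, and Myh2 at 0% in both lists. The higher H3R26C list exceeded both H3WT lists at Myh3 and Myh13, and the lower lay within the H3WT range at both.

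At start sites, 2 members (Myh3 and Myh13) had a peak in both H3WT lists. Myh13 had none in either H3R2C list, where 26.1% of the 1940 protein-coding genes marked in both H3WT lists had none, a comparison that chose the genes. Neither gene lost its peak in H3R8C (4.23% of the 1940), in H3R17C (16.1%) or in H3R26C (9.38%), so that 0 of 2 members stands beside each of these shares. These counts turn on few peaks. With the RefSeq start of Myh13, which lies further inside the gene, H3WT replicate 3 had no peak and 0 members were lost in H3R2C, and without that library 5 were. Over the start of Myh13, the totals were 7500 and 30000 in H3WT, 8500 and 50900 in H3R8C, 21550 in H3R17C, and 44350 and 23150 in H3R26C.

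To compare levels at single regions, peaks were merged over the 8 libraries of all genotypes except H3R17C, and 20900 regions with a peak in both lists of some genotype were kept. The signal of a region was the summed total of its peaks divided by the median of the library over 5589 regions called in every library. Differences are on the log2(scaled signal + 0.25) scale, which understates the change of weak regions. They were tested with limma across all regions with Benjamini-Hochberg adjustment at 0.05. Of these regions 26 lay in the span. H3WT had a peak in both lists at 18 of them, H3R8C at 15, H3R26C at 22 and H3R2C at 2, and H3R2C had none in either list at 23. At those 23 regions the H3R2C libraries add no spread to the estimate that all genotypes share. This can make the SE and p-values there too small, and it comes from the absence of peaks that chose the genes. All mutants share the H3WT libraries, which also entered the comparison that chose the genes.

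In H3R8C, 1 of the 26 regions (3.85%) passed the test, beside 5.96% of all regions. It was the domain between Myh3 and Myh2 at chr11:67132201-67152400, part of the interval in which enhancers of the adult fast genes have been described. Its summed totals were 72850 and 65250 in H3WT, 25150 and 32950 in H3R8C, 91800 and 29400 in H3R26C and 0 in both H3R2C lists. Both H3R8C lists were below both H3WT lists, and the scaled signal was lower in H3R8C by 1.07 on the log2 scale (SE 0.154, limma adjusted p = 0.0116). The call was lost in 5 of 19 alternatives by limma. The adjusted p was 0.0538 without H3R8C replicates 1 and 2, 0.0567 without H3R8C replicate 3, 0.0530 without H3WT replicates 1 and 2, 0.485 with the largest maximum signal and 0.548 on the signal as deposited. The regions of Myh4 had log2 differences of -1.09 (SE 0.555, adjusted p = 0.424, limma) and -0.79 (SE 0.229, adjusted p = 0.13, limma). At the Myh13 domain, chr11:67319651-67364400, the 95% interval of the difference was -0.50 to 0.28. The median difference over the 26 regions was -0.16, and that over all regions was 0.

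In H3R26C, 6 of the 26 regions (23.1%) passed, 5 higher and 1 lower, beside 15.7% of all regions. The median difference was 0.27 over the span and 0 over all regions, and with the signal as deposited that of the span was -0.10. The region over the start and first part of Myh3, chr11:67070451-67092700, had totals of 154600 and 84050 in H3R26C and 78300 and 73700 in H3WT. Both H3R26C lists were above both H3WT lists, by 1.00 on the log2 scale after scaling (SE 0.204, limma adjusted p = 0.0241). This call was lost in 9 of 20 alternatives, with adjusted p up to 0.7 by limma, and without the H3R2C libraries, which share the estimate of the spread, it was 0.0612. It was also lost without H3WT replicates 1 and 2 (0.0920), without H3WT replicate 3 (0.117) and without H3R26C replicate 3 (0.0776).

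The other 4 regions that were higher in H3R26C had no peak in either H3WT list. They were kept for the test only because both H3R26C lists had a peak there, so that their direction was fixed by that filter, and their values are given without a p. Over the end of Myh13, chr11:67369951-67373100, the totals were 12750 and 6450 in H3R26C and 0 in the 6 other libraries. Over the start of 2310065F04Rik, chr11:67117951-67122400, they were 18900 and 7500 in H3R26C, 4650 and 0 in H3R8C and 0 in H3WT and H3R2C. These peaks stood within a few times the lowest listed totals of the H3R26C lists, 6300 and 3400. The region at chr11:67127351-67129800, between Myh3 and Myh2, had 7700 and 4900 in H3R26C, and that at the lower edge of the span, chr11:66999951-67002100, had 6650 and 4650, with 0 elsewhere. In the span 8 regions entered through H3R26C alone. Among the 16 that entered through neither H3R26C nor H3WT alone, 2 passed (12.5%), 1 higher and 1 lower, beside 11.1% of all such regions.

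The region that was lower in H3R26C lay over Glp2r at chr11:67743051-67757850, with totals of 35800 and 11950, against 63400 and 59350 in H3WT (log2 difference -0.86, SE 0.161, limma adjusted p = 0.0180). It was not called without H3WT replicates 1 and 2 (adjusted p = 0.0688, limma), without H3WT replicate 3 (0.0524) or on the signal as deposited, where the 4 calls of the span were all higher. At the regions of Myh4 the 95% intervals of the H3R26C difference were -1.52 to 1.19 and -0.75 to 0.37, at that of Myh8 -0.43 to 0.69, and at the main Myh13 domain 0.11 to 0.89 (adjusted p = 0.0887, limma).

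**Figure D4:**
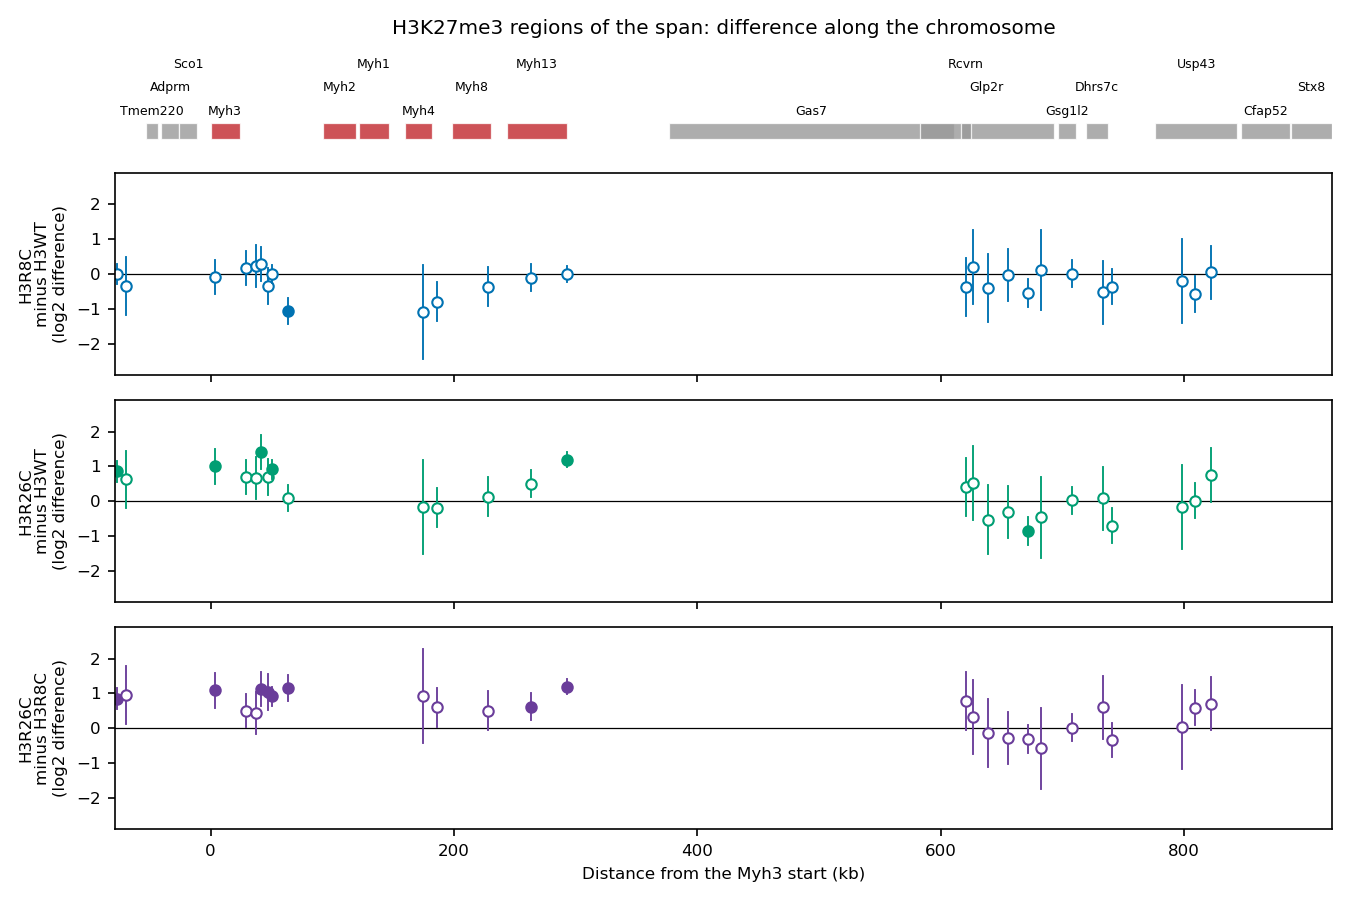
Difference in H3K27me3 signal (y axes, on the log2 of scaled signal plus 0.25) at the 26 regions of the span against distance in kb from the start of Myh3 (x axis), for H3R8C minus H3WT, H3R26C minus H3WT and H3R26C minus H3R8C. Points are limma estimates with 95% intervals and filled points have an adjusted p under 0.05; in the lowest panel all 8 filled points are above 0, of which 5 are regions kept for the test through H3R26C alone.

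H3R17C was fitted with all 9 libraries, its single list being assumed to vary like the other groups. Of the 26 regions 1 (3.85%) passed, beside 1.82% of 20814 regions. It was that over the end of Myh4, chr11:67258651-67270300, where the H3R17C list had no peak and H3WT had totals of 25700 and 31750 (log2 difference -1.90, SE 0.291, limma adjusted p = 0.0358). The call was lost in 10 of 18 alternatives, and without either H3WT library no region of the span passed. At the Myh13 domain the 95% interval of the H3R17C difference was -0.30 to 0.66.

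A direct comparison of H3R26C with H3R8C, added after the data were seen, called 8 of the 26 regions (30.8%), all higher in H3R26C, beside 18.7% of all regions. Of these, 5 had entered through H3R26C alone, which fixed their direction. Among the 18 regions that entered otherwise, 3 passed (16.7%), beside 13% of all such regions, and they were those described next. The domain between Myh3 and Myh2 described above differed by 1.15 (SE 0.154, limma adjusted p = 0.00409) and the region over Myh3 by 1.09 (SE 0.204, limma adjusted p = 0.0151). The first of these calls was lost in 2 of 19 alternatives and the call over Myh3 in 5 of 20. The main Myh13 domain differed by 0.61 (SE 0.160, limma adjusted p = 0.0468), a call that 14 of 18 alternatives lost. Before scaling, the totals of H3R26C and H3R8C overlapped at each of these 3 regions. Over Myh3 they were 154600 and 84050 in H3R26C and 56450 and 96100 in H3R8C. At the main Myh13 domain they were 200450 and 93700 in H3R26C and 101050 and 163950 in H3R8C. On the signal as deposited 3 of the 26 regions passed, all higher, beside 1670 of all 20900 regions.

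The tagged histone was sparse in the span. Over the 10 anti-HA lists there were 36 peaks, of which 23 overlapped Gas7 and 7 overlapped an H3K27me3 peak of any list. The H3R2C lists had 5 and 2 HA peaks inside the stretch. Their totals were 1350 to 3800, near the lowest totals of these lists, 1350 and 2950. The percent of the stretch under HA peaks was 0.524 and 0.341 in H3R2C, 3.60 and 0 in H3WT, 0.493 and 0.619 in H3R8C, 0.297 and 0.613 in H3R17C, and 0.291 and 0.821 in H3R26C. H3R2C lay among the other genotypes (0.433% ± 0.13, SD, n = 2, against 0.842% ± 1.14, n = 8, two-sided exact permutation test, p = 0.756, where 45 arrangements allow no p below 0.0444). Divided by the percent of the genome that each list covered, the ratio was 0.222 ± 0.158 in H3R2C (n = 2) and 0.245 ± 0.158 in the others (n = 8, exact permutation p = 0.667). Gas7 was covered over 12.2% and 0% in H3WT and over 0% to 2.27% in the mutants.

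Over the bodies of the myosin genes, HA peaks were found in H3R2C lists and in none of the 8 lists of other genotypes. There were 2 such peaks. That at chr11:67199301-67200200 (total 1550, replicates 1 and 2) reached the first bases of Myh1, and that at chr11:67187901-67189250 (total 3800, replicate 3) lay inside Myh2. They covered 0.0833% and 0.755% of the 6 bodies, against 0% in the others (two-sided exact permutation p = 0.0444, the smallest that 45 arrangements allow), a comparison planned as an alternative to that over the stretch. Both were close to the lowest totals of their lists, 1350 and 2950. A total of 3800 could not be listed in H3WT, where the lowest totals were 43200 and 6300. A total of 1550 was below the lowest of both H3WT lists, both H3R8C lists (3250 and 1600) and both H3R26C lists (1950 and 1850), so that for the peak at Myh1 only the 2 H3R17C lists (1450 in each) could have shown it.

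**Figure D5:**
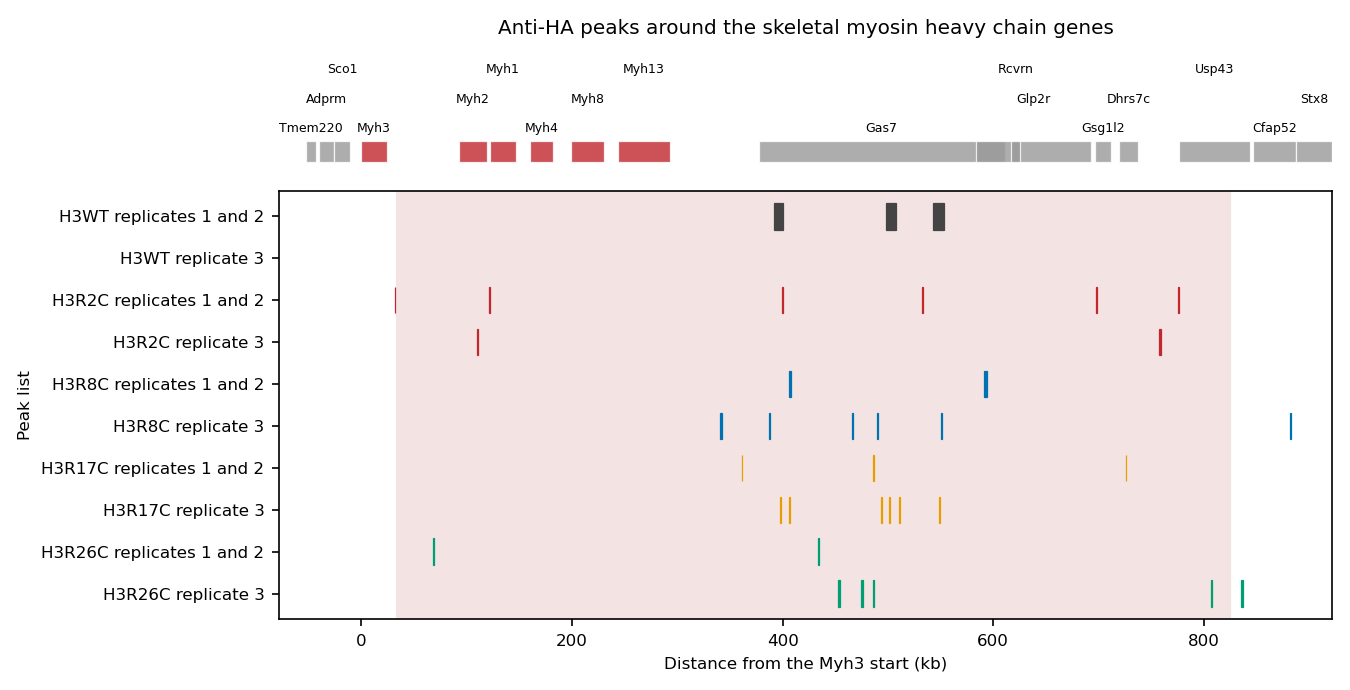
Anti-HA peaks in each of the 10 independent lists (rows) along the span, as distance in kb from the start of Myh3 (x axis), with protein-coding genes above and the H3K27me3 stretch of H3R2C shaded. Of 36 peaks 23 overlap Gas7, and 2, both from H3R2C lists, overlap a myosin gene.

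Elsewhere in the genome, 2 of 8 other myosin heavy chain genes had a peak over the start in both H3WT lists. Of these 2, 0 lacked it in H3R2C, beside 26.1% of the 1940 protein-coding genes marked in both H3WT lists. With 2 genes this count cannot be told from that share. The cardiac genes Myh6 and Myh7 on chromosome 14 had a peak over the start in 9 of 9 lists. Myh6 was covered over 50.5% and 77.2% of its body in H3WT and 79.2% and 53.5% in H3R2C, and Myh7 over 71.2% and 77.7% in H3WT and 87.7% and 68.3% in H3R2C, so that the ranges overlapped. Myh7b, a slow chain, had a peak over its start in 5 of 9 lists, which included 1 of the 2 H3WT lists and both H3R2C lists. Myh9 and Myh10, the non-muscle chains, were at 0% in all 9 lists. The smooth muscle gene Myh11 was covered over 1.86% and 2.84% of its body in H3WT and 29.0% and 11.4% in H3R2C, with no peak over its start in any list. Myh14 was at 13.2% and 22.5% in H3WT and 11.2% and 9.07% in H3R2C, and Myh15 at 4.27% and 3.32% in H3WT and 3.95% and 0.953% in H3R2C.

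Among 45 genes of the sarcomere and of excitation-contraction coupling, 7 had a peak over the start in both H3WT lists, and 0 of these lost it in H3R2C (26.1% of the 1940 genes), 1 in H3R8C (4.23%), 2 in H3R17C (16.1%) and 1 in H3R26C (9.38%). Myl3, a myosin light chain, accounted for the loss in H3R8C and H3R26C. Among 15 regulators of muscle, 3 (Myod1, Pax7 and Eya1) had a peak in both H3WT lists, and Eya1, a cofactor of homeobox factors of muscle precursors, had none in either H3R2C list. Mymk, which encodes the fusion protein myomaker, had a peak over its start in both H3R2C lists and in no other. Its body was also covered over 21.3% in H3R8C replicate 3, and the share of all genes with such a gain is not given here. Over all protein-coding genes, 1940 had a peak in both H3WT lists and 18111 had none in any list. These lists were drawn up with earlier results of these data known, and the genes named from them were picked after their values were seen.

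Over the 6 genes, the median percent of the body covered was 20.3 and 22.6 in H3WT, 0 and 0 in H3R2C, 7.11 and 4.26 in H3R8C, 11.9 in H3R17C, and 18.2 and 21.1 in H3R26C. Of 17781 genes compared, the gene outside the span with the smallest mean absolute difference from this pattern over the 9 lists was Rhox3c on chromosome X (2.58 percentage points), followed by Wt1 on chromosome 2 (3.10), Tmem108 (3.98), Snx20 (4.02) and Lrat (4.21). Rhox3c belongs to a cluster of near-identical reproductive homeobox genes between which reads may be split, and Wt1 encodes a zinc finger factor of the kidney and gonad. Wt1 was covered over 13.3% and 18.5% of its body in H3WT, 0% in both H3R2C lists, and 25.1% and 18.5% in H3R26C. Tmem108 was covered over 12.8% and 4.18% in H3R2C, and Snx20 and Lrat were at 0% there. The likeness is a ranking of genes by coverage alone.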

How the data were processed

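Single-end CUT&RUN reads were aligned by the authors with Rsubread (mm10), and SEACR 1.3 made the peak calls (stringent, norm, 0.01), 1 list per sample. Deposited columns hold the total signal (coverage summed over a peak) and the maximum signal, in whole numbers with edges on a 50 bp grid, not scaled for depth. A peak missing from a list means that signal stayed below what the caller kept, not that there was none. The study describes its replicates as independent, but where lists are identical it is not known which of them a list holds, so spreads and p-values measure the distinct lists. The members, gene lists and tests were chosen with earlier results of these data known. The named genes were the 6 members, the other protein-coding genes of the span, the other myosin heavy chains and the 5 genes most like the members in coverage.

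Genes came from GENCODE M21 (GRCm38, the same build as mm10) and promoter windows from RefSeq. Regions were peaks merged where they touched, as described in the results. They were tested with limma 3.58.1 in R 4.3.3 (lmFit and eBayes with trend), in 1 fit over the genotypes with a common spread. The script recovered the changes placed in simulated data, which is a check of the code alone. It does not show that the limma p-values hold for regions where some lists have no peak. The study modelled read counts with DESeq2, which the peak lists do not allow. HA coverage was compared by exact permutation over libraries. Coverage and overlaps were computed in Python 3.11.15.

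Samples with IgG or with anti-H3K4me3 were not used here. The study states read totals per replicate, but these could not be assigned to lists shared by replicates, so no counting interval is printed. Alternatives changed the peaks used, scaling, pseudocount, merging, start windows and libraries.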

Additional observations from a re-analysis of the deposited data

Results flagged for a closer look

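In the direct comparison of H3R26C with H3R8C, 8 of the 26 regions of the span (30.8%) passed by limma (adjusted p under 0.05), beside 18.7% of all regions. On the log2 scale, H3R26C exceeded H3R8C by 0.85 at the lower edge of the span (chr11:66999951-67002100), by 1.09 over Myh3, by 1.12 over the start of 2310065F04Rik, and by 1.04, 0.91 and 1.15 at the regions between that gene and Myh2 that start at 67123951, 67127351 and 67132201. Over Myh13 it exceeded H3R8C by 0.61 at the main domain and by 1.19 at the end of the gene. The regions at the lower edge, over 2310065F04Rik, at 67123951, at 67127351 and at the end of Myh13 were kept for the test through peaks in both H3R26C lists alone, which fixed their direction. Among the 18 regions that entered otherwise 3 passed (16.7%), beside 13% of all such regions. At these 3 the totals of H3R26C and H3R8C overlapped before scaling. Without the H3R2C libraries, 5 of the 8 passed. Those lost were the region over the start of 2310065F04Rik, that starting at 67123951 and the main Myh13 domain (adjusted p = 0.0889 by limma for the last). With the signal as deposited 3 of the 26 passed, beside 1670 of all 20900 regions, and over all regions that setting moved the median difference by -0.13. The groups hold 2 libraries each, so no library was tested for standing apart.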

How the results depend on the processing

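The stretch without H3K27me3 peaks in H3R2C was 791.4 kb, 888.45 kb with the upper 50% of peaks, 888.15 kb with equal numbers of top peaks and 791.7 kb to 795.9 kb in single lists. H3R2C minus H3WT coverage of the 6 bodies was -26.4 percentage points, -21.1 with the upper 50% of peaks and -28.5 to -24.2 with a library left out. The number of members with a peak over the start in both H3WT lists and none in H3R2C was 1, 0 with the upper 50% of peaks or RefSeq starts (an alternative added after the data were seen), and 1 to 5 with a library left out, 5 coming without H3WT replicate 3.

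H3R8C regions called were 1, 2 without the trend, and 0 as deposited, with regions called in every library or with maximum signal, and 0 to 2 with a library left out. H3R26C regions called were 6, 3 with the upper 50% of peaks or maximum signal, 1 of 2 with regions called in every library, and 4 to 8 with a library left out. H3R17C regions called were 1, 0 without the trend, with the upper 50% of peaks, as deposited, with upper quartile scaling, with a pseudocount of 1 or with regions called in every library, 2 with equal numbers of top peaks, 3 with maximum signal, and 0 to 1 with a library left out. Unscaled signal moved the median H3R17C difference of all regions by -0.19. For H3R26C against H3R8C the count was 8, 5 without H3R2C libraries or with merging within 1 kb, 3 with the upper 50% of peaks, as deposited or with maximum signal, 1 with regions called in every library, and 4 to 7 with a library left out. The main counts of 6 and 8 include regions kept through H3R26C alone, whose direction was fixed. As deposited, 846 of all 20900 regions were called for H3R8C, 1160 for H3R26C and 1670 for H3R26C against H3R8C. For H3R17C this was 0 of 20814. Shares over all regions under the other settings are not given here, so the counts describe the span alone. The cause of the shifts in these counts was not tested.

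With a replicate block, the calls were 1 for H3R8C, 7 for H3R26C, 0 for H3R17C and 7 for H3R26C against H3R8C, and HA coverage of the stretch gave p = 0.64 by exact permutation within the numbers, for the share and for the ratio. Deviations of same-numbered libraries correlated at 0.00141 to 0.158 between genotypes and the labels name no shared batch, so the numbers were not taken as pairs. In the myosin bodies in place of the stretch, H3R2C exceeded the others in HA coverage by 0.419 percentage points and in the ratio by 0.148 (exact permutation p = 0.0444 for each, the smallest the design allows), whereas in the stretch it was lower by these measures. All other lists were at 0 over the myosin bodies, so the ratio had to give the same p. Each H3R2C value rested on 1 peak near the lowest total of its list. Neither H3WT list could have listed such a peak. With a library left out, the stretch gave differences of -0.529 to -0.0149 and -0.135 to 0.0880. Peak lists hold no signal below the caller's limit, so absence of weak signal cannot be read from them.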
